A study of Mus musculus with 18 samples.

Results

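*Kmt2c* KO and *Kmt2d* KO cells of 168FARN were compared directly by RNA-seq, to ask which genes and functions separate the loss of one histone methyltransferase from the loss of the other. The comparison held 6 libraries of the 18 in the series, 3 of *Kmt2c* KO and 3 of *Kmt2d* KO, taken by the cell line and genotype in the sample labels. 168FARN is a mouse mammary tumour cell line that does not metastasize, grown in culture in serum-containing medium. The 3 WT libraries of 168FARN, which carried a control sgRNA, helped to estimate the spread and are shown for reference. 67NR is a second such line, with the same design in libraries of its own, and was used to see which differences recurred. Each knockout was a pool of cells, transfected transiently with Cas9 and 3 sgRNAs against exon 1 and then sorted. The 3 replicates of a genotype were successive passages of 1 pool, so that p-values measure the spread between passages, and what belongs to a pool cannot be told apart from what belongs to its genotype.

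KMT2C and KMT2D are large, related enzymes that put mono-methylation on a specific lysine of histone H3, H3K4, at enhancers. Each is the core of a COMPASS complex that also holds the demethylase KDM6A. The enzymes are partly redundant in many tissues, and both are often mutated in breast cancer. Loss of either enzyme leaves the complex built on the other in place.

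The guides define where each gene was cut, and are shown 5′ to 3′ with the 20 bases of the guide in lower case and the adjacent PAM in capitals, as located in mm9.
Kmt2c guide 1: tctttgcgaggccggccccgAGG
Kmt2c guide 2: ggtgactaggatgtcgtcggAGG
Kmt2c guide 3: ggggaagcgccatctttgcgAGG
Kmt2d guide 1: acggtaaatccaggtcggagTGG
Kmt2d guide 2: gaaatcctcatccgagaacaTGG
Kmt2d guide 3: gagtggtcacccttcccccgGGG

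*Kmt2c* lies on the minus strand at chr5:24777612-25004601. Its guides 1 and 3 matched chr5:25004241-25004260 and chr5:25004229-25004248 on the plus strand, in exon 1, which is coding there in at least 1 annotated transcript. Guide 2 matched chr5:25004359-25004378 on the minus strand and spans the start codon, which begins at base 25004368. *Kmt2d* lies on the minus strand at chr15:98662100-98701614. Its guides matched chr15:98701571-98701590, chr15:98701464-98701483 and chr15:98701588-98701607 on the plus strand. All 3 lie in exon 1 (chr15:98701445-98701614), which the GENCODE annotation of this build gives as 5′ UTR, with the start codon in the next exon. Each guide matched its chromosome once.

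The RNA of the targeted genes was measured first. Levels are given as CPM, TMM-normalized counts scaled to a common library total, in the order of replicates 1, 2 and 3. The 3 libraries of *Kmt2c* KO held *Kmt2c* at 96.7, 89.1 and 46.9 CPM, and those of *Kmt2d* KO at 137, 83 and 46.5. Its log2 fold change of *Kmt2c* KO over *Kmt2d* KO was -0.14 ± 0.13 (SE; adjusted p = 0.583). For *Kmt2d* the values were 215, 162 and 106 CPM in *Kmt2c* KO, 296, 260 and 136 in *Kmt2d* KO, and 160, 159 and 104 in WT. Between the knockouts its log2 fold change was -0.50 ± 0.12 (adjusted p = 0.0273, under the fold threshold). The RNA of *Kmt2d* was thus the higher in the pool in which the gene was targeted, by a log2 fold change of 0.66 ± 0.12 over WT (adjusted p = 0.00622), and that of *Kmt2c* overlapped between the genotypes. Short edits in exon 1 need not remove a transcript, so RNA level does not check the labels here. The study checked the edits by sequencing the targeted regions and the proteins by immunoblot, neither of which is analysed here.

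Between 14359760 and 39237689 reads were counted on genes in the 6 knockout libraries of 168FARN, with replicate 2 of *Kmt2d* KO the shallowest. Replicates 3 of all genotypes stood apart from replicates 1 and 2 along principal component 1 (66.1% of variance), and genotype followed on components 2 and 3 (11.7% and 10.5%). The replicate number was a block in every test unless stated. *Rn45s*, a ribosomal RNA precursor, took 4.96% of the counts in replicate 1 of *Kmt2c* KO, 3.1% in replicate 1 of *Kmt2d* KO and under 1% in the other 4. In 67NR it took 28.7% in replicate 3 of *Kmt2d* KO and 0.495% to 2.45% in the other 8 libraries. All 5 fibroblast or mesenchymal markers (*Vim*, *Fn1*, *Col1a1*, *Pdgfrb*, *Twist1*) were detected, and summed to between 8860 and 12500 CPM in the *Kmt2c* KO libraries, against 9880 to 14300 in *Kmt2d* KO. The luminal markers *Epcam*, *Cdh1* and *Krt19* and the basal markers *Krt5* and *Trp63* never exceeded 3 counts in a 168FARN library. Neither did the T cell markers *Cd3e*, *Cd3d*, *Cd8a* and *Cd4* or the macrophage markers *Adgre1* and *Itgam*. The 5 luminal markers summed to 97.8 to 286 CPM in *Kmt2c* KO and 97.6 to 380 in *Kmt2d* KO. Of the 5 luminal markers only 1, either *Krt8* or *Krt18*, had enough counts to be tested, so the sum is largely that of 1 gene.

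In all, 653 of 12253 tested genes (5.33%) differed between the knockouts by edgeR's quasi-likelihood test, with a Benjamini-Hochberg adjusted p below 0.1 and a log2 fold change beyond 0.6 in either direction. Of these, 354 genes (2.89%) were higher in *Kmt2c* KO and 299 (2.44%) were lower, and a gene is said below to be higher or lower only where it passed both thresholds. The median absolute log2 fold change of the called genes was 1.15 among those higher and 0.99 among those lower in *Kmt2c* KO, and 68 and 50 of them exceeded a log2 fold change of 2. In 203 of the 354 and 159 of the 299 the 3 libraries of one knockout lay entirely above those of the other, against 9.62% of all tested genes in either direction, a difference that the call itself favours. The difference had the same sign in all 3 replicate pairs for 347 of the 354 and 296 of the 299. Without the replicate block only 31 genes were called.

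Each knockout was then read against WT, whose libraries both readings share. Of the 354 genes higher in *Kmt2c* KO, 114 differed from WT in *Kmt2c* KO and not in *Kmt2d* KO, 125 in *Kmt2d* KO and not in *Kmt2c* KO, 29 in both and 86 in neither. Of the 299 genes lower in *Kmt2c* KO, the corresponding counts were 105, 58, 39 and 97. The called genes thus include changes of either pool away from WT, and genes in which only the direct comparison passed.

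Of the 36 gene lists examined, the interferon response list had the highest share of members called, 63.4%. These genes encode antiviral effectors and sensors, and are switched on when transcription factors activated by interferon bind a GAAA-rich element in their promoters. Of the 41 tested members 24 were higher and 2 lower in *Kmt2c* KO, and the median log2 fold change of the list was 1.28, against 0.00 over all tested genes. The background share of genes higher in *Kmt2c* KO was 2.89%, as above, and that of the list was 58.5%.

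In the members shown first, the level in *Kmt2c* KO was near that of WT, and it was *Kmt2d* KO that was low. *Isg15*, a ubiquitin-like modifier, was at 24.8, 26.5 and 20.4 CPM in *Kmt2c* KO, 9.01, 9.75 and 4.81 in *Kmt2d* KO and 25.7, 25.4 and 17.4 in WT. *Oas3*, a sensor of double-stranded RNA, was at 8.32, 8.55 and 2.24 CPM in *Kmt2c* KO, 0.649, 0.565 and 0.666 in *Kmt2d* KO and 7.69, 10.1 and 3.09 in WT. *Rtp4*, a receptor transporter gene induced by interferon, was at 35.4, 32.9 and 12.2 CPM in *Kmt2c* KO, 3.29, 3.04 and 3.66 in *Kmt2d* KO and 30.1, 29.9 and 7.29 in WT. In *Isg15*, *Oas3* and *Rtp4* every *Kmt2c* KO library lay above every *Kmt2d* KO library, and *Kmt2c* KO and WT overlapped. *Bst2*, which encodes the virus-tethering protein tetherin, was at 119, 119 and 17.4 CPM in *Kmt2c* KO, 61.5, 66.3 and 10.2 in *Kmt2d* KO and 115, 121 and 17.1 in WT. Its groups overlapped because replicates 3 were low in each genotype, and within every replicate *Kmt2c* KO was higher.

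**Figure D1:**
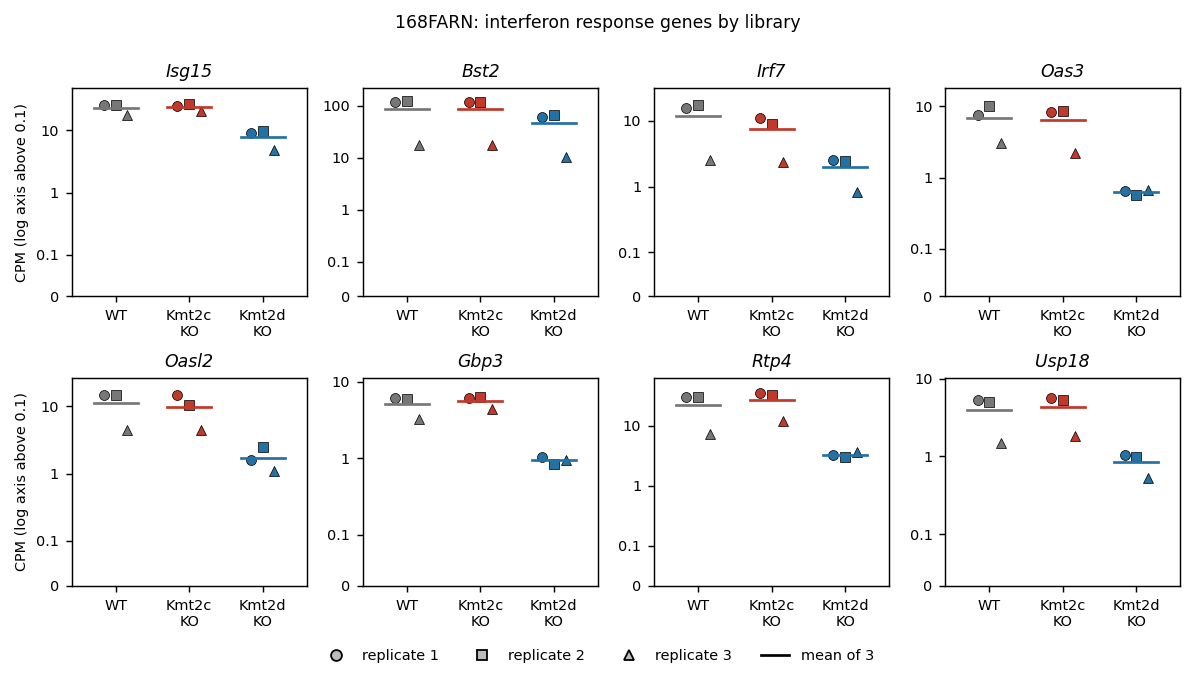
CPM of 8 interferon response genes in each 168FARN library (points; shape gives the replicate, the line the mean of 3 libraries), on a log axis above 0.1. *Kmt2c* KO and WT lie at similar levels in most panels, and *Kmt2d* KO lies lower. *Irf7* is somewhat lower in *Kmt2c* KO than in WT (log2 fold change -0.55 ± 0.20, under the fold threshold). Replicates 3 lie apart from the others for several genes.

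The log2 fold changes of *Kmt2c* KO over *Kmt2d* KO were 1.66 ± 0.15 for *Isg15* (SE; adjusted p = 5.84e-05), 2.48 ± 0.24 for the oligoadenylate synthetase-like gene *Oasl2* (0.000105), 2.50 ± 0.25 for the guanylate-binding protein *Gbp3* (0.000105), 3.08 ± 0.35 for *Oas3* (0.000329), 0.86 ± 0.10 for *Bst2* (0.000329) and 1.47 ± 0.17 for *Xaf1*, an interferon-induced partner of XIAP (0.000355). Other members higher in *Kmt2c* KO were *Usp18*, which removes ISG15 from proteins, *Irf7*, the transcription factor that amplifies type I interferon, *Oas1a*, *Oas2*, *Oasl1*, *Ifit1*, *Ifit3*, *Ifi35*, *Ifi44*, *Igtp*, *Iigp1*, *Mx2*, *Gbp7*, *Parp14*, *Zbp1*, *Rsad2* and *Ddx58*, the gene of the RNA sensor RIG-I. *Rsad2* had 0 counts in *Kmt2d* KO and 28 in *Kmt2c* KO, which is at least 5.62-fold higher, and *Zbp1* had 3 and 65 counts, a ratio of 13 (95% exact interval 4.27 to 64.8, counting error only). The Oas, Gbp, Ifit and Iigp1-like genes belong to families with close copies, so their single counts are less certain than the direction of the family.

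All 24 members that were higher had a positive difference in each of the 3 replicate pairs, and in 17 of the 24 the libraries of the 2 knockouts did not overlap, as they did not in 57.3% of all 354 genes that were higher. Of all tested genes 5.09% did not overlap and were higher in *Kmt2c* KO, and nothing is read from that background here, since the 24 were chosen by their call. The median difference of the list, as log2(CPM + 0.5) within a pair, was 1.08 in replicate 1, 0.96 in replicate 2 and 0.74 in replicate 3, where the medians over all tested genes were 0.00, 0.01 and -0.01. Leaving out 1 library left 16 to 26 members called higher. Leaving out all libraries of replicate 1, 2 or 3 left 12, 14 or 30. Without the replicate block 1 member, *Gbp3*, was called.

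The 2 members lower in *Kmt2c* KO were *Ifi203* and *Ifi204*, which encode DNA-binding proteins of the HIN-200 family. *Ifi203* was at 350, 355 and 127 CPM in *Kmt2c* KO and 570, 645 and 223 in *Kmt2d* KO, with 442, 422 and 153 in WT. *Kmt2d* KO was thus the higher knockout in all 3 replicate pairs. *Ifi204* was at 25.3, 29.3 and 60.9 CPM in *Kmt2c* KO and 39.6, 49.3 and 96.7 in *Kmt2d* KO, with 50.5, 46.5 and 77.1 in WT. For *Ifi204* it was *Kmt2c* KO that was below WT (log2 fold change -0.67 ± 0.13, adjusted p = 0.0083), and *Kmt2d* KO over WT gave 0.02 ± 0.13. Of the other genes the study names, *Cd274*, which encodes PD-L1, and *Ly6a* did not pass (adjusted p = 0.778 and 0.696). *Ifi27l2a* had the larger CPM in *Kmt2c* KO in replicates 1 and 2 and in *Kmt2d* KO in replicate 3 (adjusted p = 0.108). The study named *Cd274*, *Ly6a*, *Ifi27l2a* and *Bst2* from single-cell RNA-seq of tumours in mice, as raised in tumour cells of both knockouts over WT. That is another setting and another contrast. In the cultured cells here *Bst2* was below WT in *Kmt2d* KO (log2 fold change -0.84 ± 0.10).

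The 5 macrophage markers summed to 3.6 to 92.2 CPM in *Kmt2c* KO and 6.59 to 83.9 in *Kmt2d* KO. The 5 T cell markers summed to at most 0.0975 and 0.148. Of these markers 2 of macrophages and 0 of T cells had enough counts to be tested, and 0 were called. Whether such cells differed between the knockouts was not tested. In a bulk library, fewer cells that make a transcript and less of it per cell cannot be told apart.

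Read against WT, 31 of the 41 members were lower in *Kmt2d* KO, where 3.17% of all tested genes were, and 2 were lower and 1 higher in *Kmt2c* KO, where 3.57% of all tested genes were lower. The median log2 fold change of the list was -1.45 in *Kmt2d* KO and -0.15 in *Kmt2c* KO, both over the same WT libraries.

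Short promoter windows of 6 of the members that were higher are shown because the genes moved together, with a pair of GAAA repeats, GAAANNGAAA, in capitals. The search covered both strands of the 250 bases before and 50 after each gene start in RefSeq (GRCm38.p6), and each 26-base window was then found once by its letters near the gene in mm9, at the position given.
Isg15, chr4:155574988-155575013, minus strand: tgccgtagGAAAAGGAAAccgaaaca
Gbp3, chr3:142222961-142222986, minus strand: ggatctggGAAATAGAAActgaaact
Bst2, chr8:74061484-74061509, minus strand: cattccagGAAAATGAAActgaaagg
Oas3, chr5:121227726-121227751, minus strand: agggaggaGAAAACGAAAgtgaaggg
Ifit1, chr19:34715286-34715311, minus strand: agcagtgaGAAACTGAAActgagact
Gbp7, chr3:142193239-142193264, minus strand: ggagaactGAAACTGAAActgcacac

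The first capital lies 78 bases before the gene start in *Isg15* and 130 before it in *Bst2*. A window was found in the table for 17 of the 24 members that were higher, and 11 of the 17 held these letters. Of the members that were not higher 10 had a window, and 5 of the 10 held them, as did 1079 of all 27025 genes of the table (3.99%). Because under 80% of the list's members had a window, a comparison of the shares is void, and the matches are given as a description of these promoters only.

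In 67NR the interferon response list did not separate the knockouts in this direction. *Isg15* was at 3.85, 3.44 and 4.48 CPM in *Kmt2c* KO and 4.85, 5.54 and 7.23 in *Kmt2d* KO of that line, with 19.8, 15.7 and 44.4 in WT, so that both knockouts were below WT there. Of the 41 members 11 were lower in *Kmt2c* KO of 67NR, where 5.7% of the tested genes were lower and 1.59% higher, and the median log2 fold change was -0.54. No member was called higher by edgeR. At an unadjusted p under 0.05 the count was 0 as well, and DESeq2 called 0. *Ifit1*, *Ifi44*, *Oas1a*, *Oas3*, *Oasl2*, *Usp18*, *Gbp7* and *Iigp1* were higher in *Kmt2c* KO of 168FARN and lower in *Kmt2c* KO of 67NR. The test of the difference between the lines called 29 of the 41 members, each with the more positive value in 168FARN, against 4.52% of all 13882 genes in that test. Without replicate 3 of *Kmt2d* KO of 67NR these counts were 10 members lower in 67NR and 28 called between the lines.

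**Figure D2:**
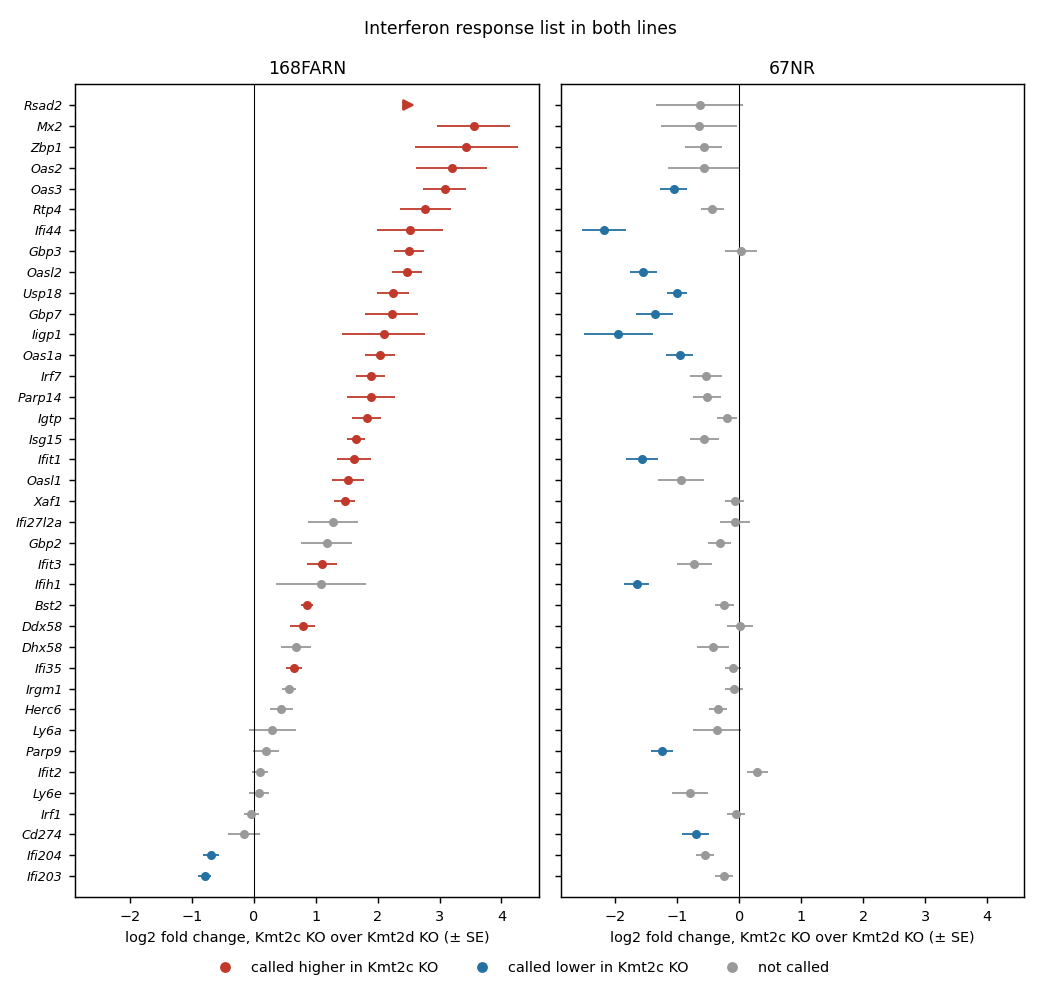
Log2 fold change of *Kmt2c* KO over *Kmt2d* KO with its standard error for 38 of the 41 tested interferon response genes, in 168FARN (left) and 67NR (right), on 1 scale. In 168FARN 24 genes are called higher (red) and 2 lower (blue), and in 67NR 11 are called lower. The triangle marks *Rsad2* at its lower bound, since *Kmt2d* KO of 168FARN had 0 counts.

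Beyond the interferon genes, several genes were at very low levels in *Kmt2c* KO. *Tbx4*, a T-box transcription factor of developing limb and lung mesenchyme at chr11:85699924-85729599, was at 0, 0 and 0.0534 CPM in *Kmt2c* KO, 3.72, 4.73 and 3.07 in *Kmt2d* KO and 0.994, 0.774 and 0.604 in WT. It had 2 counts in *Kmt2c* KO and 236 in *Kmt2d* KO, a ratio of 196 (95% exact interval 53.7 to 1630, counting error only), with WT in between.

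In 3 other genes *Kmt2c* KO was at or near 0 and WT was not. *Gm364*, a predicted protein-coding gene at chrX:54662331-54741944, was at 0.423, 0.389 and 0.427 CPM in *Kmt2c* KO, 61.8, 47.3 and 117 in *Kmt2d* KO and 78.2, 76.7 and 119 in WT. *Mrgprx2*, a Mas-related G protein-coupled receptor at chr7:55733989-55754640, was at 0.423, 0.518 and 0.24 CPM in *Kmt2c* KO, 43.9, 34.3 and 31.6 in *Kmt2d* KO and 31.6, 30 and 24 in WT. *Plpp6*, a lipid phosphatase gene at chr19:29038410-29041288, had 0 counts in the 3 *Kmt2c* KO libraries and 2.38, 4.31 and 1.78 CPM in *Kmt2d* KO, at least 90.9-fold higher, with 6.73, 5.3 and 3.35 CPM in WT. WT and *Kmt2d* KO overlapped for *Gm364* and for *Mrgprx2*, and *Plpp6* was lower than WT in *Kmt2d* KO too (log2 fold change -0.90, adjusted p = 0.0913). The log2 fold changes between the knockouts were -7.45 ± 0.21 for *Gm364* and -6.52 ± 0.19 for *Mrgprx2* (adjusted p = 8.89e-10 for both). *Gm364* and *Mrgprx2* were the 2 called genes with a mean under 0.5 CPM in one knockout and over 5 in the other.

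**Figure D3:**
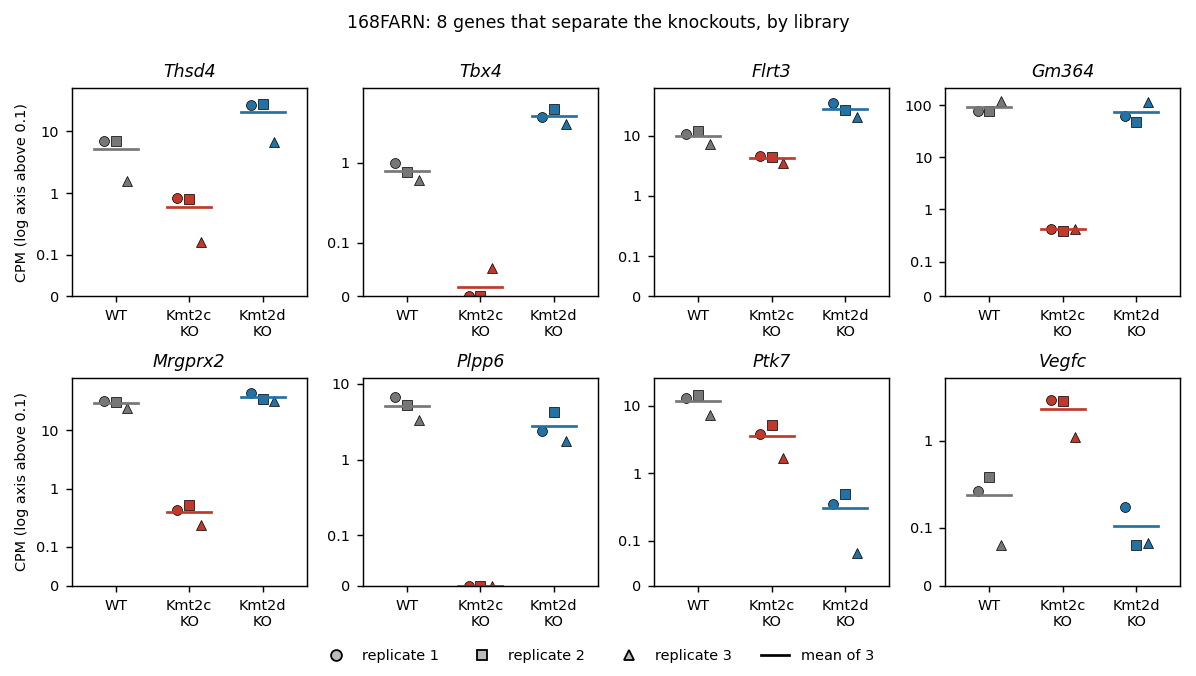
CPM of 8 genes in each 168FARN library (points; shape gives the replicate, the line the mean of 3 libraries), on a log axis above 0.1. *Gm364*, *Mrgprx2* and *Plpp6* are near or at 0 in *Kmt2c* KO alone, *Ptk7* is below WT in both knockouts and lowest in *Kmt2d* KO, and *Vegfc* is highest in *Kmt2c* KO.

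*Thsd4*, which encodes an ADAMTS-like protein of the extracellular matrix, moved in opposite directions in the knockouts. It was at 0.846, 0.803 and 0.16 CPM in *Kmt2c* KO, 26.1, 27.7 and 6.81 in *Kmt2d* KO and 6.99, 6.97 and 1.56 in WT. Over WT the log2 fold change of *Thsd4* came to -3.09 ± 0.19 with *Kmt2c* KO and to 2.0 ± 0.15 with *Kmt2d* KO, both past the test. *Flrt3*, a transmembrane protein of cell adhesion and guidance, was split in the same way, at 4.58, 4.35 and 3.58 CPM in *Kmt2c* KO, 34.2, 26.9 and 20.6 in *Kmt2d* KO and 10.6, 12 and 7.39 in WT. Other genes with low p-values among those lower in *Kmt2c* KO were *1700007G11Rik*, *Chn1* (a Rac GTPase-activating chimaerin), *Iqcg*, *Col3a1*, *Mid1* (a microtubule-bound ubiquitin ligase), *Fam129a* and *Npepl1*, with log2 fold changes from -1.19 (*Mid1*) to -3.58 (*Col3a1*). *Chn1* was at 3.84, 3.83 and 2.11 CPM in *Kmt2c* KO, 14.2, 15.1 and 8.62 in *Kmt2d* KO and 15, 16.3 and 8.94 in WT, and *Kmt2c* KO was thus the one that differed from WT.

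The genes with the lowest p-values among those higher in *Kmt2c* KO included *Scara3*, a scavenger receptor, *Pitpnc1*, a phosphatidylinositol transfer protein, *Nptx1*, a secreted pentraxin, *Pla2g5* and *Pla2g7*, secreted phospholipases, *Ptk7*, a pseudokinase receptor of planar cell polarity, and *Cdh5*, VE-cadherin. *Scara3* was at 10.9, 11.7 and 5.74 CPM in *Kmt2c* KO, 1.69, 1.77 and 0.629 in *Kmt2d* KO and 10.1, 12.1 and 4.39 in WT, so *Kmt2d* KO was the low one. *Pitpnc1* was at 21.6, 20.5 and 6.51 CPM in *Kmt2c* KO, 4.5, 4.38 and 1.22 in *Kmt2d* KO and 4.14, 4.79 and 1.04 in WT, so *Kmt2c* KO was the high one. The remaining genes of this group were *Arl6ip1*, *Xlr3c*, *Isg15*, *Fam149a*, *Itga6*, *Pros1*, *Sema3c* and *Oasl2*. *Ptk7* was below WT in both, at 3.84, 5.21 and 1.68 CPM in *Kmt2c* KO, 0.346, 0.495 and 0.074 in *Kmt2d* KO and 13.1, 14.3 and 7.25 in WT. Its log2 fold change between the knockouts was 3.60 ± 0.31 (adjusted p = 5.30e-05). *Cdh5* was at 4.68, 4.82 and 4.46 CPM in *Kmt2c* KO, 0.39, 0.283 and 0.481 in *Kmt2d* KO and 0.497, 0.655 and 1.11 in WT. Of the other endothelial markers *Kdr* and *Tie1* did not exceed 3 counts in any 168FARN library, and the 5 markers summed to between 4.64 and 5.26 CPM in the *Kmt2c* KO libraries, nearly all of it *Cdh5*, against 0.636 to 1.08 in *Kmt2d* KO.

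Genes of the extracellular matrix differed in both directions. Counts in this and the following lists stand beside 2.89% of all tested genes higher and 2.44% lower in *Kmt2c* KO. Of 34 tested collagens and cross-linking enzymes 4 were higher and 4 lower in *Kmt2c* KO, with a median log2 fold change of 0.17, and of 34 matricellular proteins and proteoglycans 4 were higher and 7 lower, with a median of -0.11. The fibrillar collagens *Col3a1* and *Col5a2* were lower in *Kmt2c* KO. *Col3a1* was at 0.228, 0.414 and 0.32 CPM in *Kmt2c* KO, 3.9, 3.67 and 4.14 in *Kmt2d* KO and 1.99, 1.88 and 2.65 in WT (log2 fold change -3.58 ± 0.32, adjusted p = 5.84e-05). *Col6a5*, a chain of collagen VI that forms beaded microfibrils, was higher in *Kmt2c* KO at 372, 360 and 109 CPM, against 148, 154 and 58.4 in *Kmt2d* KO and 133, 134 and 54.6 in WT. Other collagen VI chains were split, with *Col6a1* and *Col6a2* higher and *Col6a3* lower in *Kmt2c* KO. The call for *Col6a1* was lost without replicate 1 of *Kmt2d* KO, where single omissions gave a lowest log2 fold change of 0.86. That for *Col6a3* was lost without replicate 2 or 3 of *Kmt2d* KO, with a value nearest 0 of -0.58.

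Among the proteoglycans the leading genes ran opposite ways as well. *Sdc3*, a cell-surface heparan sulphate proteoglycan, was at 135, 138 and 73.6 CPM in *Kmt2c* KO, 45.8, 62.6 and 42.1 in *Kmt2d* KO and 34.8, 39.2 and 30 in WT. *Bgn*, biglycan, was at 20, 14.9 and 5.5 CPM in *Kmt2c* KO and 3.68, 4.45 and 2.04 in *Kmt2d* KO, with 1.69, 2.77 and 1.91 in WT. *Kmt2c* KO was above both other genotypes in every library for *Sdc3* and *Bgn*. *Vcan*, the large proteoglycan versican, was at 17.9, 20.6 and 32.4 CPM in *Kmt2c* KO and 33.1, 32.1 and 68.4 in *Kmt2d* KO, with 20.8, 22.1 and 30 in WT. Here *Kmt2d* KO was the one above WT, as it was for tenascin X, *Tnxb* (log2 fold change between the knockouts -0.98 ± 0.16, adjusted p = 0.00351).

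ADAM and ADAMTS proteases cut matrix and cell-surface proteins. Of 17 tested genes in this list 5 were higher in *Kmt2c* KO and 0 lower (lower: 0 by DESeq2 and 1 at an unadjusted p under 0.05), and the median log2 fold change of the 17 was 0.11. *Adamts9* was at 3.15, 3.16 and 4.35 CPM in *Kmt2c* KO, 0.823, 0.353 and 0.777 in *Kmt2d* KO and 1.33, 1.1 and 1.23 in WT. *Adamts10*, whose product acts on fibrillin microfibrils, had 95 counts in *Kmt2c* KO and 0 in *Kmt2d* KO, at least 19.1-fold higher, and was at 1.89, 1.61 and 0.697 CPM in WT. *Adam19* and *Adamtsl3*, an ADAMTS-like gene whose product lacks the protease domain, were the next. *Thsd4*, the ADAMTS-like gene described above, was not in the list and was lower in *Kmt2c* KO (log2 fold change -5.09 ± 0.19). *Adamts7* lost its call without any 1 of 4 libraries (replicates 1 and 2 of each knockout), with a lowest log2 fold change of 0.50. *Mmp3*, a stromelysin that the study follows, was at 38.1, 39.5 and 33.5 CPM in *Kmt2c* KO, 20.4, 34 and 25.6 in *Kmt2d* KO and 6.43, 6.79 and 4.67 in WT. Both knockouts were above WT in every library, and between them the log2 fold change was 0.49 ± 0.15 (adjusted p = 0.0756), under the fold threshold. *Plau*, which encodes the urokinase plasminogen activator, was at 5.01, 7.2 and 29.5 CPM in *Kmt2c* KO and 1.77, 2.47 and 14 in *Kmt2d* KO (log2 fold change 1.31 ± 0.24, adjusted p = 0.00747). *Serpinh1*, the collagen chaperone HSP47, was lower in *Kmt2c* KO (-1.08 ± 0.16, adjusted p = 0.00195).

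Guidance molecules were the list with the second-highest number of genes higher in *Kmt2c* KO, 11 of 41 tested, with 3 lower and a median log2 fold change of 0.16, where 2.89% of all tested genes were higher and 2.44% lower. These are secreted or membrane-bound cues and their receptors that steer axons, vessels and migrating cells. The secreted semaphorin *Sema3c* was at 24.4, 28.1 and 21.7 CPM in *Kmt2c* KO, 10.3, 7.21 and 7.14 in *Kmt2d* KO and 23.2, 22.6 and 15.6 in WT. The membrane-anchored *Sema7a* was at 53, 50.5 and 100 CPM in *Kmt2c* KO, 17.4, 23.7 and 46.3 in *Kmt2d* KO and 14.9, 18 and 24.9 in WT. The co-receptor *Nrp1*, neuropilin, was at 25.8, 21.2 and 25 CPM in *Kmt2c* KO, 13.8, 11.9 and 11.2 in *Kmt2d* KO and 14.2, 13.1 and 12.1 in WT. *Sema7a* and *Nrp1* were thus above WT in *Kmt2c* KO, while *Sema3c* was below WT in *Kmt2d* KO. *Sema3f*, *Sema6a*, *Sema6d*, *Ephb2*, *Ephb3*, *Efna4*, *Ntn1* (netrin) and *Rgma* were the other members higher, and *Ephb6*, *Sema3d* and *Efnb3* the members lower. *Ntn1* lost its call without replicate 1 of *Kmt2d* KO (lowest log2 fold change 0.56).

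Adhesion receptors and their ligands followed. *Itga6*, the integrin subunit that binds laminins, was at 38.3, 43 and 37.2 CPM in *Kmt2c* KO, 14.9, 15.8 and 17.4 in *Kmt2d* KO and 19.1, 18.5 and 21.4 in WT. *Itga6* was raised in *Kmt2c* KO over WT. *Lama5*, a laminin chain, was lower in *Kmt2c* KO (log2 fold change -0.83 ± 0.11, adjusted p = 0.000986). Of 14 tested mesenchymal markers 1 was called, *Snai2*, the transcription factor SLUG, at 6.34, 7.15 and 8.54 CPM in *Kmt2c* KO, 2.64, 1.2 and 2.81 in *Kmt2d* KO and 6.43, 6.04 and 14.2 in WT. The median log2 fold change of these markers was -0.14.

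Among signalling genes, ligands and receptors of several pathways were called rather than whole pathways. *Vegfc*, a ligand of lymphatic growth, was at 2.93, 2.82 and 1.09 CPM in *Kmt2c* KO, 0.173, 0.0707 and 0.074 in *Kmt2d* KO and 0.265, 0.387 and 0.0697 in WT (log2 fold change 4.24 ± 0.50, adjusted p = 0.00043). *Igf2*, an imprinted growth factor, was at 81.2, 74.9 and 12.2 CPM in *Kmt2c* KO, 12.3, 16.6 and 4.48 in *Kmt2d* KO and 141, 168 and 63.1 in WT. It was lower than WT in both knockouts and lower again in *Kmt2d* KO (log2 fold change between the knockouts 2.19 ± 0.28, adjusted p = 0.00327). *Pros1*, protein S, a ligand of TAM receptors, was at 47.1, 55.3 and 25.4 CPM in *Kmt2c* KO, 15.9, 15.9 and 10.2 in *Kmt2d* KO and 25.1, 25.9 and 20.1 in WT. Of the 48 tested growth factors and receptor tyrosine kinases in this list, *Fgfr1* was the 1 member lower in *Kmt2c* KO, at 225, 211 and 80 CPM against 361, 352 and 129, with 122, 125 and 68.9 in WT.

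Extracellular inhibitors of morphogens differed too. *Dkk2* and *Notum*, secreted antagonists of Wnt, were higher in *Kmt2c* KO. *Dkk2* was at 6.24, 6.22 and 8.62 CPM in *Kmt2c* KO and 1.73, 2.12 and 2.29 in *Kmt2d* KO, with 1.69, 2.62 and 4.13 in WT (log2 fold change 1.79 ± 0.23, adjusted p = 0.000755). *Grem1*, a secreted BMP antagonist, was lower, at 4.07, 3.52 and 7.42 CPM against 10.4, 13.1 and 20.5, with 19.1, 20.9 and 21.7 in WT. *Chrd*, the other called gene of the TGF-beta and BMP list, was higher. It lost its call without any of 5 knockout libraries, all but replicate 3 of *Kmt2c* KO (lowest log2 fold change 0.89). Of 23 tested Notch genes 5 were higher in *Kmt2c* KO, and 0 were lower by edgeR (0 by DESeq2 and 2 at an unadjusted p under 0.05), with a median log2 fold change of 0.25. They were the ligand *Dll1*, the receptors *Notch1* and *Notch4*, the ubiquitin ligase *Dtx4* and *Hes6*, all with log2 fold changes of 0.71 to 1.00, and 4 of the 5 lost the call without at least 1 library. *Dll1* lost it without replicate 1 of *Kmt2d* KO (lowest log2 fold change 0.73), *Notch1* without replicate 2 of *Kmt2d* KO (0.58), *Notch4* without any of the 6 knockout libraries (0.57) and *Hes6* without any of them but replicate 3 of *Kmt2c* KO (0.58). *Dtx4* held its call without any 1 library, but lost it without replicate 1 or replicate 2 of all genotypes.

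Cytokine genes were split, with 4 of 48 tested members higher and 5 lower in *Kmt2c* KO. *Il11*, a cytokine of the gp130 family, was at 35.3, 36 and 26.6 CPM in *Kmt2c* KO, 16.5, 18.7 and 12 in *Kmt2d* KO and 14.9, 15.1 and 8.15 in WT. *Il1rl1*, the receptor of interleukin-33, was at 1.07, 1.14 and 2.75 CPM in *Kmt2c* KO, 4.2, 7.77 and 10.8 in *Kmt2d* KO and 6.33, 6.04 and 20.4 in WT. *Kmt2c* KO was the genotype that differed from WT in both genes. *Lifr*, a receptor subunit that also signals through gp130, was lower in *Kmt2c* KO (log2 fold change -0.69 ± 0.12, adjusted p = 0.00505), and *Il13ra1* was higher (0.95 ± 0.15, adjusted p = 0.00348). The chemokine *Ccl5* was at 4.07, 4.61 and 1.07 CPM in *Kmt2c* KO, 1.34, 1.34 and 0.777 in *Kmt2d* KO and 5.14, 5.45 and 3.37 in WT (1.36 ± 0.32, adjusted p = 0.025), a call lost without replicate 1 or 2 of either knockout (lowest log2 fold change 1.12). *Cxcl1* did not pass (adjusted p = 0.668). Among 16 tested complement genes *C1s1* was lower, and *C3* and *Masp1* were higher, the higher ones with adjusted p of 0.0929 and 0.0557. *C1s1* lost its call without replicate 1 of *Kmt2d* KO (-0.63), *C3* without any of 5 libraries (replicates 1 and 2 of both knockouts and replicate 1 of WT, lowest 0.79) and *Masp1* without any of 4 (replicate 1 of both knockouts, replicate 3 of *Kmt2c* KO and replicate 2 of *Kmt2d* KO, lowest 0.78).

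Of 49 tested enzymes of lipid handling, 5 were higher in *Kmt2c* KO and 0 lower by edgeR (lower: 0 by DESeq2 and 4 at an unadjusted p under 0.05), with a median log2 fold change of 0.16. Over all tested genes 2.89% were higher and 2.44% lower, so that a list of this size without a lower gene says little. *Pla2g5* was at 52.8, 52 and 46.7 CPM in *Kmt2c* KO, 13.4, 18.2 and 17.3 in *Kmt2d* KO and 19.6, 21.5 and 20.9 in WT. *Pla2g7*, which inactivates platelet-activating factor, was at 13.2, 16.8 and 5.66 CPM in *Kmt2c* KO, 3.94, 2.97 and 1.81 in *Kmt2d* KO and 19.6, 22.3 and 7.32 in WT. The first was raised in *Kmt2c* KO and the second lowered in *Kmt2d* KO. *Cerk*, ceramide kinase, which the study names, was at 12.2, 9.74 and 5.95 CPM in *Kmt2c* KO and 14.8, 13.5 and 5.88 in *Kmt2d* KO, with 1.36, 1.07 and 0.627 in WT. In *Cerk* *Kmt2c* KO exceeded WT by a log2 fold change of 3.20 and *Kmt2d* KO by 3.45, and that between the knockouts was -0.25 ± 0.16 (adjusted p = 0.38). The scavenger receptor *Scara5* was also above WT in both, by 2.31 and 2.70, with -0.39 ± 0.15 between the knockouts (adjusted p = 0.139), whereas the ubiquitin ligase *Pdzrn3*, raised in both, was further raised in *Kmt2d* KO (30.6, 37 and 26.8 CPM against 15.8, 16.2 and 13.2 in *Kmt2c* KO and 4.71, 4.32 and 2.65 in WT).

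In metabolism and stress genes, *Mgst1*, a microsomal glutathione transferase, was at 25.3, 27.1 and 2.99 CPM in *Kmt2c* KO, 4.55, 5.79 and 1.44 in *Kmt2d* KO and 22.3, 21.4 and 6.5 in WT. *Pfkfb3*, a regulator of glycolysis, was at 7.45, 6.35 and 5.68 CPM in *Kmt2c* KO, 1.73, 2.69 and 2.07 in *Kmt2d* KO and 2.62, 2.98 and 3.69 in WT. Of 37 tested genes of the ATF4 response and tRNA charging, 32 had a negative log2 fold change, with a median of -0.30, but 2 were called, the tRNA synthetase *Tars* and the amino acid transporter *Slc7a3*, and both lost the call without replicate 1 of either knockout or replicate 2 of *Kmt2d* KO, with log2 fold changes nearest 0 of -0.55 for *Tars* and -0.76 for *Slc7a3*. *Slc7a3* also lost it without replicate 1 or 2 of WT, replicate 2 of *Kmt2c* KO or replicate 3 of *Kmt2d* KO.

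In 6 lists edgeR called no gene. Over all 12253 tested genes 2699 had an unadjusted p under 0.05 in either direction, so the unadjusted counts below say little by themselves. Of 17 tested COMPASS subunits 3 were lower and 0 higher at an unadjusted p under 0.05, and DESeq2 called 0. Of 20 Polycomb and other histone-modifying enzymes the unadjusted counts and DESeq2's were 0. Of 25 mitotic genes 6, and of 32 DNA replication genes 7, were higher in *Kmt2c* KO at an unadjusted p under 0.05, with 0 lower and 0 called by DESeq2, and the largest log2 fold changes were 0.42 and 0.37. Of 6 epithelial markers the unadjusted and DESeq2 counts were 0, and of 17 Hox genes the unadjusted counts were 1 up and 1 down, with 1 called higher by DESeq2. These lists therefore held no difference past both thresholds, which does not show that their genes were equal. *Kdm6a* was at 60, 53.9 and 50.3 CPM in *Kmt2c* KO and 74.3, 43.1 and 51 in *Kmt2d* KO (adjusted p = 0.971).

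Several named genes outside these lists, or alone in theirs, also kept their calls in every fit with the block. *Renbp*, which encodes a renin-binding epimerase, was at 4.55, 3.29 and 0.614 CPM in *Kmt2c* KO, 32.8, 42.9 and 17.1 in *Kmt2d* KO and 41.9, 37.9 and 21.5 in WT. *Fmnl1*, a formin that assembles actin filaments, was at 8.88, 9.92 and 7.44 CPM in *Kmt2c* KO, 2.34, 2.61 and 2.26 in *Kmt2d* KO and 0.696, 1.73 and 0.929 in WT. *Phf11d* was at 17.2, 16.3 and 4.46 CPM in *Kmt2c* KO, 6.19, 4.59 and 1.52 in *Kmt2d* KO and 16.5, 17.4 and 4.13 in WT. *Renbp* was thus low in *Kmt2c* KO alone, *Fmnl1* was above WT in both and most in *Kmt2c* KO, and *Phf11d* was low in *Kmt2d* KO alone.

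**Figure D4:**
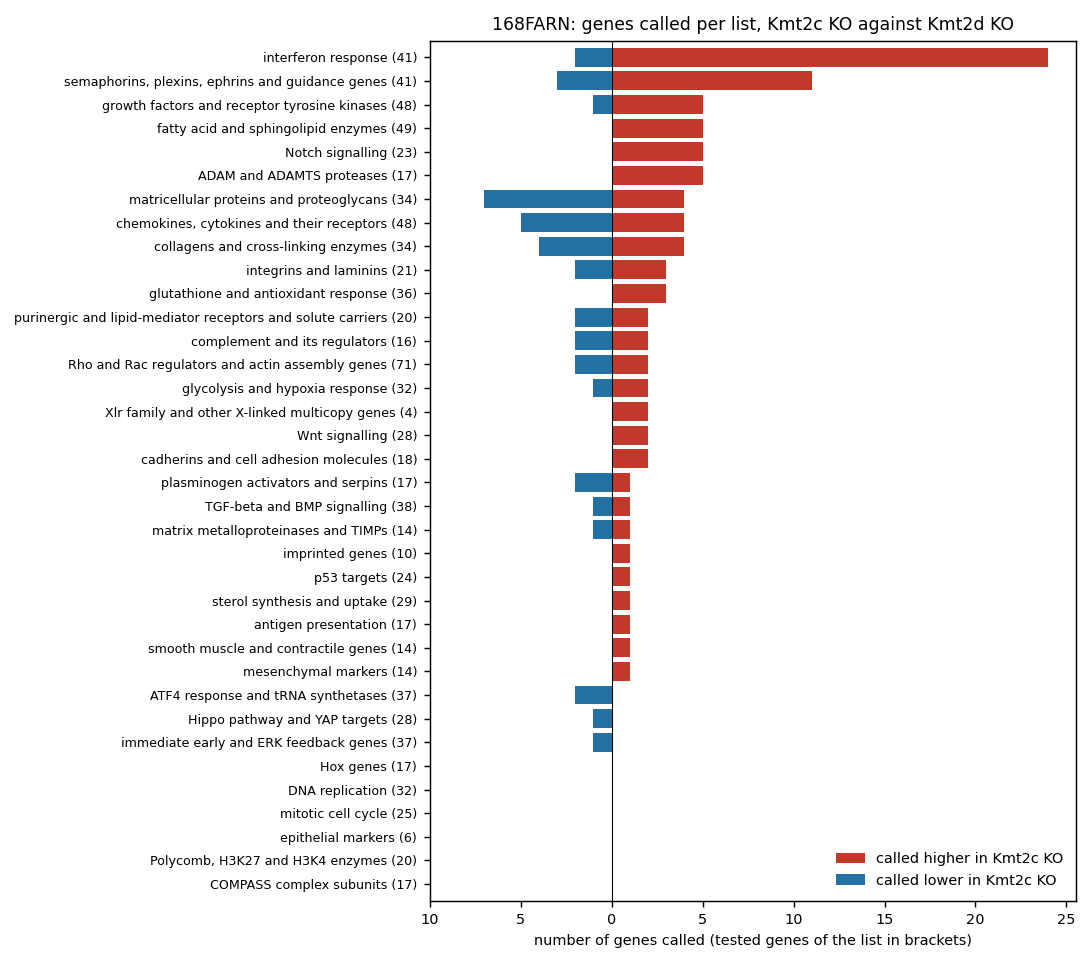
Number of genes called higher (red, right) and lower (blue, left) in *Kmt2c* KO against *Kmt2d* KO of 168FARN in each of 36 gene lists, with the number of tested members in brackets. The interferon response list has 24 genes higher and 2 lower of 41, and 6 lists have no called gene.

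In 67NR the same comparison called 996 of 13665 genes (7.29%), of which 217 were higher and 779 lower in *Kmt2c* KO. Leaving out 1 library moved the count of genes higher from 28 (without replicate 1 of *Kmt2d* KO) to 441 (without replicate 3 of WT), and that of genes lower from 428 (without replicate 2 of *Kmt2c* KO) to 1018 (without replicate 3 of WT). Without replicate 3 of *Kmt2d* KO, the library rich in *Rn45s*, 190 were higher and 682 lower. Of the 11988 genes tested in both lines, 599 were called in 168FARN and 647 in 67NR, and 62 had calls of 1 direction in the lines, which is 10.4% of the former and 9.58% of the latter, while 67 were called in opposite directions. Of the 62, 23 were higher and 39 lower in *Kmt2c* KO. They include *Thsd4*, *Flrt3*, *Chn1*, *Pla2g5*, *Xlr3c*, *Plpp6* and *Dynap*, which are among the 8 with the smallest p-values in 168FARN. *Thsd4* had a log2 fold change of -1.34 ± 0.24 in 67NR (adjusted p = 0.00705), and *Plpp6* of -1.38 ± 0.15 (0.000418). *Xlr3c* and *Xlr3b*, X-linked multicopy genes whose near-identical copies share reads, were higher in *Kmt2c* KO of 168FARN, and *Xlr3c* in both lines (log2 fold change 1.34 ± 0.12 in 168FARN and 0.64 ± 0.18 in 67NR). *Xlr3b* lost its call without any of 5 knockout libraries, all but replicate 3 of *Kmt2c* KO (lowest 1.14).

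The test of the difference between the lines called 948 of 13882 genes (6.83%), 310 of them among the 652 genes called in 168FARN that entered it. Those 652 were chosen by their call on the same 168FARN values, which favours a high share. *Mrgprx2* was lower in *Kmt2c* KO of 168FARN and higher in *Kmt2c* KO of 67NR, where its log2 fold change was 2.09. *Pitpnc1*, *Scara3*, *Ptk7* and *Pla2g7* were higher in *Kmt2c* KO of 168FARN and lower in that of 67NR, with log2 fold changes of -0.91, -1.06, -0.71 and -1.50 in 67NR.

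Over the chromosomes the share of tested genes called ran from 2.81% on chromosome 13 to 8.21% on chromosome 1 and 9.39% on the X chromosome, against 5.33% in all, and whether the calls were spread evenly was not tested. On chromosomes 16 and 8 the shares were 5.63% and 5.55%, near that of all genes, and most of the called genes were higher. On chromosome 16, *Kmt2c* KO was higher in 17 of 373 tested genes and lower in 4, and the median log2 fold change over all its tested genes was 0.19. On chromosome 8, 31 of 631 were higher and 4 lower, with a median of 0.17, and 79.4% and 78.8% of the genes on chromosomes 16 and 8 had a value above 0. On chromosome 1, 13 of 658 were higher and 41 lower, with a median of -0.12 and 33.3% of values above 0. Chromosomes 10, 12 and 17 had similar medians, -0.13, -0.10 and -0.10, with 30.1%, 31.1% and 32.2% of values above 0. Against WT, *Kmt2c* KO had medians of 0.17 on chromosome 16 and 0.15 on chromosome 8, and *Kmt2d* KO of -0.02 on both and of 0.12 on chromosome 1. On the X chromosome both knockouts were above WT, with medians of 0.29 and 0.26. The part of these shifts in the calls was not tested. *Cdh5*, *Vegfc*, *Nrp1*, *Bst2* and *Fam149a* lie on chromosome 8, *Pros1*, *Snai2* and *Masp1*, and *Iqcg* in the other direction, on chromosome 16, and *Col3a1*, *Col5a2*, *Col6a3*, *Il1rl1* and *Fam129a* on chromosome 1. The 24 interferon response genes higher in *Kmt2c* KO lie on 12 chromosomes, 1 of them on chromosome 8 and 3 on chromosome 16.

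**Figure D5:**
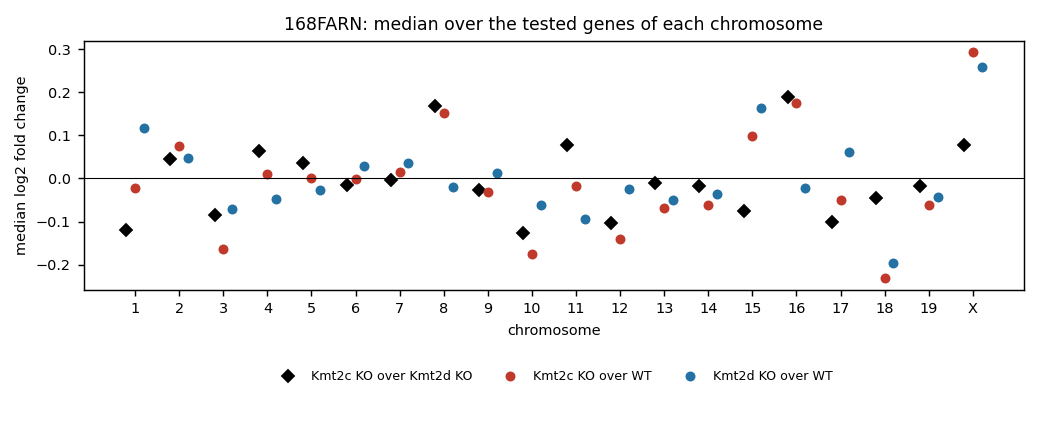
Median log2 fold change over the tested genes of each chromosome in 168FARN, for *Kmt2c* KO over *Kmt2d* KO (black diamonds) and for each knockout over WT (circles). Chromosomes 8 and 16 have medians of 0.17 and 0.19 between the knockouts, and *Kmt2c* KO is the knockout above WT on them.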

How the data were processed

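The authors made the libraries from polyadenylated RNA, aligned the reads with STAR to mm9 in the VIPER pipeline and deposited raw counts per gene for each line. The libraries were made with a strand-specific kit, but whether counting used strand is not given in the sources used here, so overlapping and antisense genes may share counts. Counts were tested with edgeR 4.0.16 in R 4.3.3 (TMM, filterByExpr, robust quasi-likelihood test, Benjamini-Hochberg adjustment) over the 9 libraries of a line, with genotype and the replicate number as a block, and over all 18 libraries for the difference between the lines. The study removed collection times as batches for its heatmaps and tested genotype without a batch term. Here the block was part of the main design, and same-numbered libraries deviated together (correlations 0.65 to 0.897 in 168FARN and 0.351 to 0.717 in 67NR), although replicates 1 and 2 were not told apart from each other. DESeq2 1.42.0 was an alternative. Symbols were placed with the mm9 annotation by name. In 67NR 27 symbols had been turned into dates and were left out of the joint test. Intervals and floors cover counting error only. A gene at 0 in all 3 libraries of a group was given a floor of 3 counts over the group. Genes named were those the study names for these cells, in culture or in tumours in mice. Also named were 15 per direction among called genes without overlap, ranked by p. The rule added those under 0.5 CPM in one knockout and over 5 in the other, and up to 6 called genes in each of 36 lists. It ended with the 8 leading genes shared with 67NR, and 4 per direction from the test between lines. Some genes that the rule names are not reported here. Other members of a list are named only to complete its count, after their values were seen. The members and lists were chosen with earlier results of these data known.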

Additional observations from a re-analysis of the deposited data

Results flagged for a closer look

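The difference between the knockouts itself differed between 168FARN and 67NR, by the test of that difference, in 948 genes and in 29 of the 41 interferon response genes. Among the named genes it was the more positive in 168FARN, as the log2 difference between the lines, by 9.51 for *Adamts10* (a fitted value that depends on the prior count, since *Kmt2d* KO of 168FARN was at 0), 4.34 for *Ptk7*, 4.15 for *Oas3*, 4.04 for *Oasl2*, 3.92 for *Scara3*, 3.46 for *Pla2g7*, 3.23 for *Pitpnc1*, 3.14 for *Phf11d* and 3.07 for *Mgst1*. It was more positive by 2.89 for *Fmnl1*, 2.88 for *Sorbs2*, 2.74 for *Bgn*, 2.61 for *Pfkfb3*, 2.24 for *Fads3*, 2.03 for *Psmb9*, 2.01 for *Plau*, 2.0 for *Gyg*, 1.66 for *Ankrd37*, 1.60 for *Il13ra1* and 1.49 for *Areg*. It was the more negative in 168FARN by -8.60 for *Mrgprx2*, -7.27 for *Gm364*, -3.90 for *Renbp*, -3.74 for *Thsd4* and -2.57 for *Tnxb*. Of the 118 named genes called in 168FARN, 79 were called in this test and 22 were called in opposite directions in the lines. Over all genes 6.83% were called in this test. Many of the 118 were named for small p-values on the same 168FARN values, and some for this test itself. A high count among them is therefore favoured, and nothing is read from it.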

How the results depend on the processing

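Of the 653 genes called in 168FARN, 31 were called without the replicate block, all of them among the 653, and 19 of the 118 named genes that were called. Without the block the counts were 1 for the interferon response genes higher in *Kmt2c* KO (24 with it), 5 for those lower in 67NR (11), 9 for those in the difference between the lines (29), 193 for all genes in 67NR (996) and 80 for all genes between the lines (948), and the common biological coefficient of variation in 168FARN was 0.412 against 0.130 with the block. With the stricter limits of 0.05 for the adjusted p and 1 for the log2 fold change the counts were 292 in 168FARN, 412 in 67NR and 420 between the lines. Leaving out replicate 1, 2 or 3 of all genotypes gave 281, 278 and 1186 genes in 168FARN and 12, 14 and 30 interferon response genes. Leaving out 1 library gave 342 (without replicate 1 of *Kmt2d* KO) to 1015 (without replicate 3 of *Kmt2c* KO) genes in 168FARN, 16 to 26 interferon response genes, 486 to 1459 genes in 67NR and 492 to 1330 between the lines, with 8 to 14 interferon response genes lower in 67NR and 22 to 34 called between the lines. The cause was not tested. The alternatives on the interferon counts were chosen after seeing the data. No named gene that was called in 168FARN changed direction, and direction was not followed for the named genes that were not called. Of the 118 called named genes, 71 were called in every fit with the block and 41 lost the call without at least 1 library. Depth limits what can be called among low genes, and the shallowest library was replicate 2 of *Kmt2d* KO, with 14359760 counts.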
